A study of Mus musculus with 4 samples.

Results

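Antioxidant enzyme genes, 10 in number, were examined in donor-derived KL cells of BcorΔE9-10 and BcorWT genotype, the peroxiredoxins *Prdx1*, *Prdx2*, *Prdx3*, *Prdx5* and *Prdx6*, the thioredoxin *Txn1*, the glutathione peroxidases *Gpx1* and *Gpx4*, the superoxide dismutase *Sod1* and the catalase gene *Cat*. They were chosen by name, as the rows of the count table that carry these 10 symbols, and all 10 were present among its 12067 genes. KL cells are myeloid progenitors that carry c-Kit but neither lineage antigens nor Sca-1. The BcorΔE9-10 group (n = 2 libraries) came from donors of genotype scl-Cre-ERT +; Bcorfl/y, and the BcorWT group (n = 2) from Bcorfl/y donors without the Cre transgene. Both groups therefore carry the floxed *Bcor* allele on their single X chromosome. Donors of both groups received tamoxifen, as the paper describes. In the first group tamoxifen activates a Cre recombinase driven by *Tal1* (Scl) sequences in haematopoietic stem cells. The recombinase removes exons 9 and 10, which shifts the reading frame and leaves a truncated protein. The control group lacks the recombinase and does not control for it. Whole bone marrow was transplanted into irradiated *Ptprca* recipients, and CD45.2-positive KL cells were sorted at 20 weeks. Donors were male, from the single floxed allele in the labels and from the methods, which limit Quant-seq and other molecular work to males. Donor age is given in the methods only as a range for all mice. Libraries were made with Quant-seq, which reads each transcript near its 3′ end.

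Superoxide and hydrogen peroxide arise from respiration and from the phagocyte NADPH oxidase. Superoxide dismutases turn superoxide into hydrogen peroxide, which catalase breaks down to water and oxygen and which peroxiredoxins and glutathione peroxidases reduce at the expense of thioredoxin and glutathione, both kept reduced by NADPH. In the bone marrow, low levels of these oxidants accompany stem cell quiescence, and higher levels accompany myeloid differentiation.

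Antioxidant genes are classically controlled by Nrf2, which binds the antioxidant response element, so the core of that element, TGACNNNGC on either strand (GCNNNGTCA when read on the other), was looked for in the RefSeq promoter windows of the 10 genes, from 250 bases before to 50 bases after each gene start (GRCm38.p6). A window was found for 9 of them, all but *Prdx6*. Matches lay in the windows of 2 of the 9 genes (22.2%), against 17.2% of the 8396 genes of the table that have a window. These stretches of the plus strand carry the match in capitals with 10 bases on each side, in *Prdx1* (chr4:116685456-116685484, the match starting 133 bases before the RefSeq gene start, which is not the GENCODE start given further on) and in *Sod1* (chr16:90220696-90220724, 56 bases before its RefSeq start).
Prdx1: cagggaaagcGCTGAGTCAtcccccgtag
Sod1: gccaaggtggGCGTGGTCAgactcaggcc
A match describes letters only, and binding of a factor was not measured here.

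Both glutathione peroxidases belong to the selenoproteins, in which a TGA codon inside the reading frame is read as selenocysteine, the catalytic residue. In the GENCODE M21 coding sequences an in-frame TGA was found in *Gpx1*, at codon 47 of 201, and in *Gpx4*, at codon 129 of 253, and in none of the other 8 genes. For each gene the longest coding sequence with such a codon was used, so the codon numbers refer to that isoform. The sequences below show the TGA codon in capitals with 12 bases on each side. That codon is what sets these enzymes apart from the cysteine-based peroxiredoxins.
Gpx1: gtcgcgtctctcTGAggcaccacgatc
Gpx4: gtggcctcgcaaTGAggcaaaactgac

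The libraries held 3825289.5 to 6253100.5 counts, and 3 counts, the upper limit that a count of 0 allows, corresponded to 0.489 to 0.876 CPM (counts scaled by library total and TMM factor to a common size). All 10 genes lay above this floor, with 63 to 7304 counts per library. No molecular identifiers are described, so floors and intervals on shares of counts cover counting error only. The RNA gene *Gm42418* took 1.43% of the counts in BcorWT replicate 2 (95% Wilson interval 1.42 to 1.45%) and 14.3 to 27.9% in the other 3 libraries. The BcorWT libraries were the least alike of all pairs (Pearson r of log2 CPM across genes 0.893, against 0.901 to 0.947), and results are therefore also given without each of them. *Bcor* (chrX:12036740-12160355) had 104 and 113 counts in BcorΔE9-10 and 58 and 79 in BcorWT, which does not check the genotype because the deletion lies upstream of the counted 3′ end. Of the sort gate's genes, *Kit*, which encodes c-Kit, ranged from 29.4 to 61.9 CPM, and *Ly6a*, which encodes Sca-1, had 0 and 20 counts in BcorΔE9-10 and 13 and 6 in BcorWT. Genes of lineage antigens that the gate leaves out were nevertheless present, *Itgam* (CD11b) at 73.7 to 159 CPM and *Ly6g* (a Gr-1 antigen) at 39.6 to 174 CPM.

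None of the 10 antioxidant genes passed the test between BcorΔE9-10 and BcorWT KL cells. With edgeR's quasi-likelihood test, 0 of 10 had an adjusted p under 0.05 (0.0166% of all 12067 genes did), and 0 of 10 had an unadjusted p under 0.05 (4.42% of all genes did). The counts were also 0 and 0 with limma-voom and with DESeq2. Log2 fold changes (BcorΔE9-10 against BcorWT) were above 0 for 5 genes and below 0 for 5, ranged from -0.39 to 0.32 and had a median of 0.08, against -0.03 over all genes. A fold change larger in size than that of any of the 10 was found for 42.5% of all genes. Adjusted p ranged from 0.952 to 0.980. Nothing in the labels says that the libraries came from separate recipients, so p-values measure only the spread between these samples. In such bulk libraries, fewer cells that express a gene and less RNA per cell cannot be told apart.

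**Figure D1:**
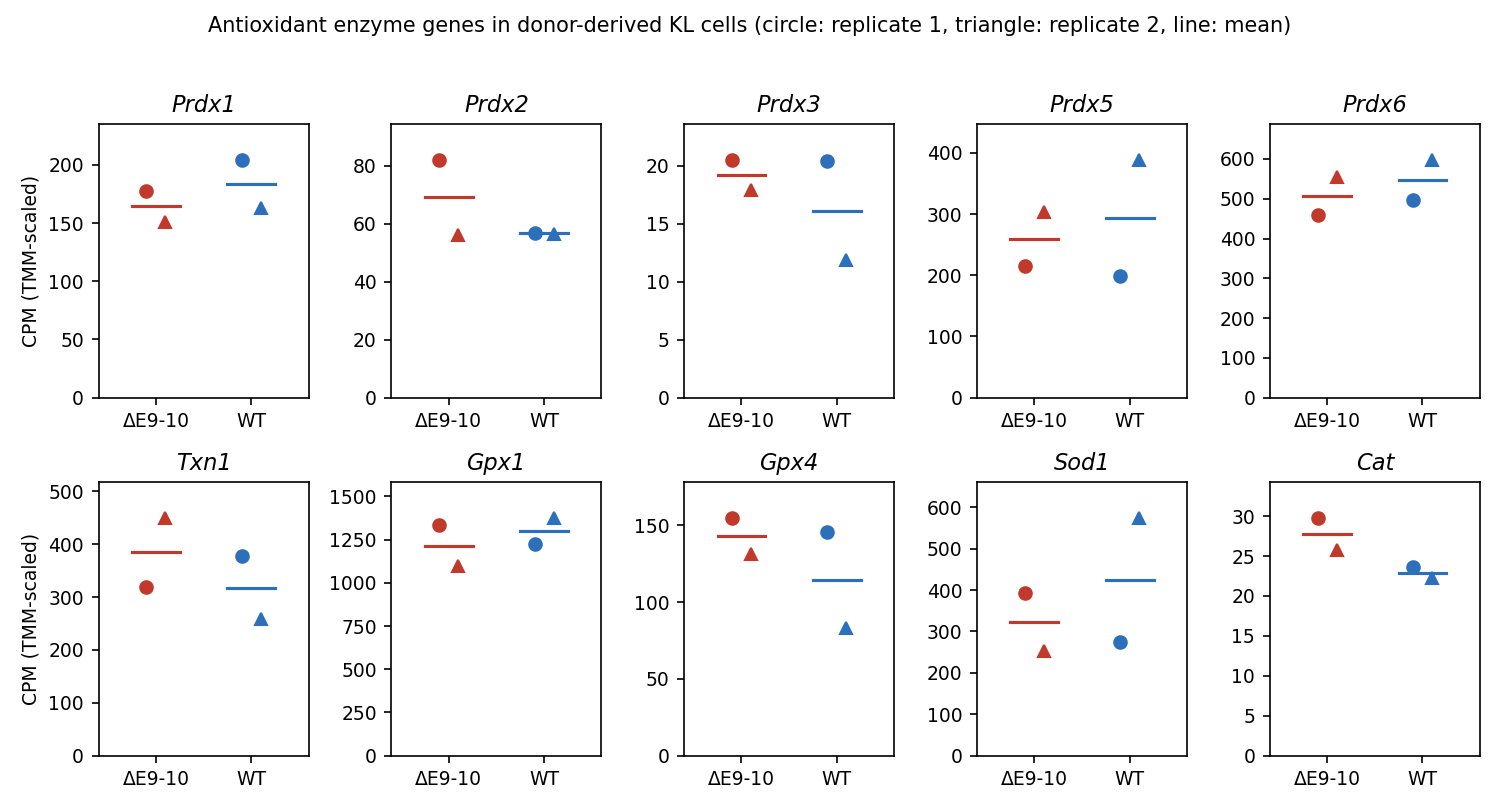
Level of each antioxidant gene in CPM (linear axes from 0, TMM-scaled) in every library of BcorΔE9-10 (red) and BcorWT (blue). Circles are replicate 1, triangles replicate 2 and lines the group means, and *Cat* is the one gene of 10 whose groups do not overlap.

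Peroxiredoxins are thiol peroxidases that reduce hydrogen peroxide with a reactive cysteine. *Prdx1* (chr4:116685544-116700822, GRCm38) encodes an abundant cytosolic and nuclear member. It was at 177 and 151 CPM in BcorΔE9-10 replicates 1 and 2 and at 204 and 163 CPM in BcorWT replicates 1 and 2. The groups overlapped, because BcorΔE9-10 replicate 1 lay above BcorWT replicate 2. Means were 164 ± 18.4 and 184 ± 28.8 CPM (SD, n = 2 each), a log2 fold change of -0.16 (standard error 0.32, edgeR adjusted p = 0.968).

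*Prdx2* (chr8:84969587-84974834) encodes the cytosolic peroxiredoxin that is abundant in red cells. Its level was 82.1 and 56.2 CPM in the BcorΔE9-10 libraries and 56.9 and 56.5 CPM in the BcorWT libraries. A single library, BcorΔE9-10 replicate 1, stood above the other 3, which lay close together. The log2 fold change was 0.29 (standard error 0.33, edgeR adjusted p = 0.952). The last 351 bases of the gene overlap *Junb* on the opposite strand, and whether counting used the strand is not stated in the sources used here. *Junb*, a transcription factor gene, had 1829 to 3002 counts per library and a log2 fold change of 0.01.

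*Prdx3* (chr19:60864051-60874556) encodes a mitochondrial peroxiredoxin. The BcorΔE9-10 libraries had 20.5 and 17.9 CPM and the BcorWT libraries 20.4 and 11.9 CPM. One control library, replicate 2, was low, and the other control library was level with the higher BcorΔE9-10 library. The log2 fold change of 0.26 (standard error 0.40) had an edgeR adjusted p of 0.961.

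*Prdx5* (chr19:6906697-6910106) encodes a peroxiredoxin of mitochondria, peroxisomes and cytosol. Levels of 215 and 303 CPM were measured in BcorΔE9-10 and of 199 and 388 CPM in BcorWT. The control libraries enclosed both BcorΔE9-10 libraries, and replicate 2 was the higher one in either genotype. The log2 fold change was -0.18 (standard error 0.41, edgeR adjusted p = 0.974).

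*Prdx6* (chr1:161240112-161251219) encodes the 1-cysteine peroxiredoxin, which uses glutathione and also reduces phospholipid peroxides. BcorΔE9-10 libraries were at 460 and 556 CPM and BcorWT libraries at 498 and 597 CPM. Replicate 2 was again the higher library in both genotypes, and the groups overlapped. The log2 fold change of -0.11 (standard error 0.33) had an edgeR adjusted p of 0.977.

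*Txn1* (chr4:57943373-57956411) encodes cytosolic thioredoxin, the electron donor of most peroxiredoxins. It was at 320 and 449 CPM in BcorΔE9-10 and at 378 and 258 CPM in BcorWT. The highest level was in BcorΔE9-10 replicate 2 and the lowest in BcorWT replicate 2, with the 2 other libraries between them in the opposite order. The log2 fold change was 0.28 (standard error 0.36, edgeR adjusted p = 0.956). A processed pseudogene in the table, *Txn-ps1* (chr1:44463923-44464231), is 95.8% identical to the *Txn1* transcript over 309 bases and had 9 to 59 counts per library. With its counts added, the log2 fold change of *Txn1* was still 0.28.

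*Gpx1* (chr9:108338903-108340343), the cytosolic and mitochondrial glutathione peroxidase, had 7205 and 6719 counts in the BcorΔE9-10 libraries and 4193 and 7304 in the BcorWT libraries. On the CPM scale these were 1332 and 1095 against 1224 and 1374. Of the BcorΔE9-10 values, 1 lay inside the control range and 1 below it. With means of 1213 ± 167 and 1299 ± 106 CPM (SD, n = 2 each), the log2 fold change of -0.10 had a standard error of 0.34 (edgeR adjusted p = 0.980).

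*Gpx4* (chr10:80047166-80056439) encodes the phospholipid hydroperoxide glutathione peroxidase, which protects membranes against lipid peroxidation and ferroptosis. Its levels were 155 and 131 CPM in BcorΔE9-10 and 145 and 83.2 CPM in BcorWT. The other 3 libraries were close together and BcorWT replicate 2 was low. At 0.32 (standard error 0.37, edgeR adjusted p = 0.952) its log2 fold change was the highest of the 10, and its 95% interval ran from -0.53 to 1.18.

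*Sod1* (chr16:90220754-90226329) encodes the copper-zinc superoxide dismutase of the cytosol. It was measured at 394 and 252 CPM in BcorΔE9-10 and at 274 and 574 CPM in BcorWT. The highest library, BcorWT replicate 2, was 2.27-fold above the lowest, BcorΔE9-10 replicate 2, and this was the widest spread among the 10 genes. The lowest log2 fold change of the group, -0.39 (standard error 0.44, edgeR adjusted p = 0.952), had a 95% interval from -1.41 to 0.63. The last 650 bases of *Sod1* overlap *Scaf4* on the opposite strand, which had 93 to 173 counts per library. The processed pseudogene *Gm8566* (chr6:67205619-67206083) is 97.8% identical to *Sod1* over 465 bases, had 4 to 15 counts per library and left the log2 fold change at -0.39 when added.

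*Cat* (chr2:103453849-103485160) encodes catalase, the peroxisomal enzyme that needs neither thioredoxin nor glutathione. The BcorΔE9-10 libraries had 161 and 158 counts (29.8 and 25.8 CPM) and the BcorWT libraries 81 and 118 counts (23.7 and 22.2 CPM). This was the one gene of the 10 whose groups did not overlap, both BcorΔE9-10 libraries being higher, where 33.9% of all genes did not overlap (16.8% of all genes with BcorΔE9-10 higher). Means were 27.8 ± 2.83 and 22.9 ± 1.02 CPM (SD, n = 2 each), and the log2 fold change was 0.28 (standard error 0.32, edgeR adjusted p = 0.952).

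**Figure D2:**
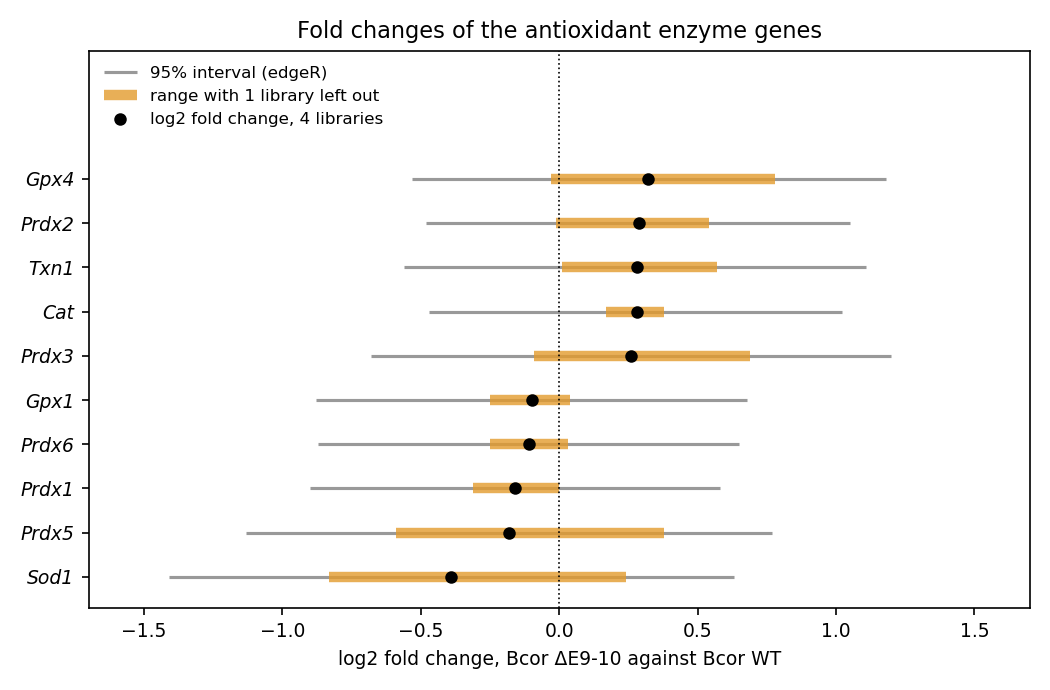
Log2 fold change of each antioxidant gene, BcorΔE9-10 against BcorWT (black points), with its 95% interval from edgeR (grey lines) and the range of the value when 1 library is left out (orange bars). All 10 intervals hold 0, and the orange bars of *Txn1* and *Cat* lie above 0.

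The 95% intervals of the fold changes give the sizes that these libraries could still hold. They contained 0 for all 10 genes, with a half-width of 0.74 to 1.02 on the log2 scale, against a median of 0.98 over all genes. For 3 genes the interval lay within 1 log2 unit of 0 on either side, and for all 10 within 2 log2 units, with outermost bounds of -1.41 (*Sod1*) and 1.20 (*Prdx3*). The interval of *Prdx1* ran from -0.90 to 0.58, that of *Prdx6* from -0.87 to 0.65 and that of *Gpx1* from -0.88 to 0.68. Intervals that hold 0 do not show that the levels were equal. Summed over the 10 genes, the BcorΔE9-10 libraries held 3185 and 3038 CPM and the BcorWT libraries 3023 and 3529 CPM. These sums, of which *Gpx1* made up 36.0 to 41.8%, overlapped between genotypes (3112 ± 104 and 3276 ± 357 CPM, SD, n = 2 each).

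Differences between libraries of 1 genotype were mostly larger than those between genotypes, as they were for most genes. The absolute log2 difference between the BcorWT libraries exceeded that between the group means for 8 of the 10 genes. The same held for 69.6% of the 11979 genes with counts in every library. The difference between the BcorΔE9-10 libraries did so for 7 of the 10, and its share over all genes was not computed. At least 1 of the 2 differences did so for 9 of 10, all but *Cat*, where 79.8% of the 11979 genes had the same property. *Sod1* differed by 1.07 log2 units between the BcorWT libraries and *Prdx5* by 0.96, both higher in replicate 2, whereas *Gpx4* differed by -0.81 and *Prdx3* by -0.79. BcorWT replicate 2 was the highest library for 4 of the 10 genes (*Prdx5*, *Prdx6*, *Gpx1*, *Sod1*) and the lowest for 4 (*Prdx3*, *Txn1*, *Gpx4*, *Cat*). The median absolute difference between the BcorWT libraries was 0.44 over the 10 genes and 0.59 over all such genes. Between the BcorΔE9-10 libraries it was 0.28 and 0.31.

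**Figure D3:**
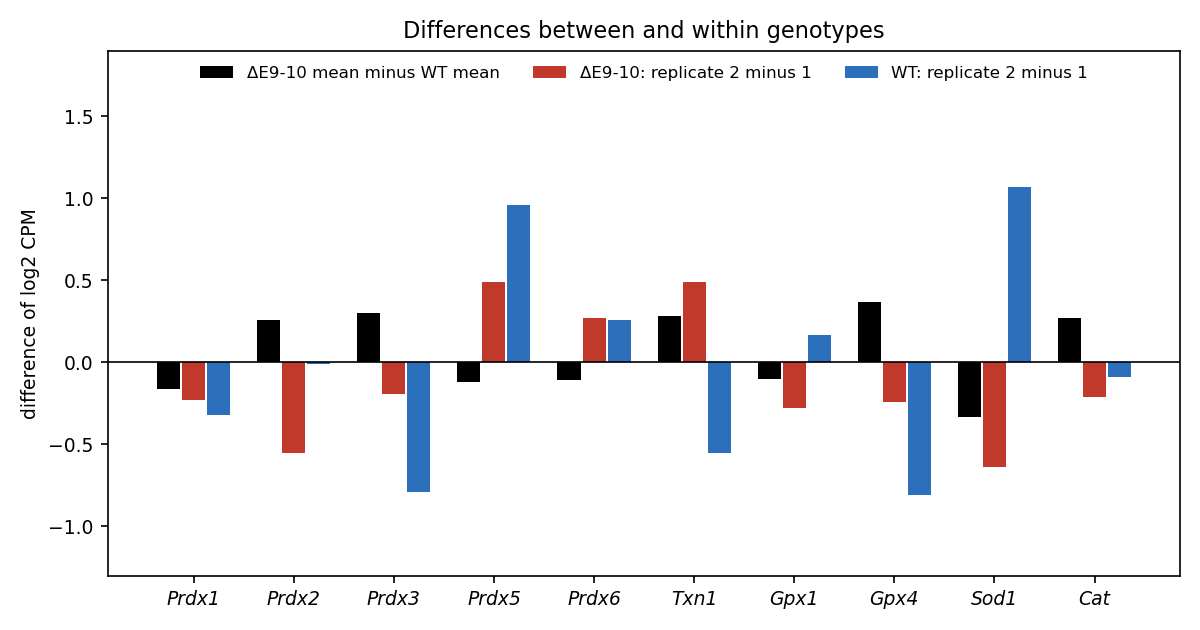
Differences of log2 CPM for each antioxidant gene, between the group means (black), between the BcorΔE9-10 libraries (red) and between the BcorWT libraries (blue), the last 2 as replicate 2 minus replicate 1. The blue bars of *Sod1* (1.07), *Prdx5* (0.96), *Gpx4* (-0.81) and *Prdx3* (-0.79) exceed every black bar, of which the longest is that of *Gpx4* (0.37).

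The direction of 8 of the 10 genes turned when 1 library was left out, the exceptions being *Txn1* (log2 fold change 0.01 to 0.57) and *Cat* (0.17 to 0.38). The 10 values lay between -0.39 and 0.32 with all libraries, and the share of all genes that turned was not computed. Without BcorWT replicate 1 the log2 fold change was 0.78 for *Gpx4* (unadjusted p = 0.0238, adjusted p = 0.138) and -0.83 for *Sod1* (unadjusted p = 0.0342, adjusted p = 0.167, both from edgeR), which put 2 of 10 genes under an unadjusted p of 0.05. In that fit, in which a lone control library is assumed to vary like the other group, 25.0% of all genes were under the same threshold, so the share of the 10 was close to the background. *Prdx3* was then at 0.69 and *Prdx5* at -0.59, without an unadjusted p under 0.05. Without BcorWT replicate 2 the values turned to -0.03 for *Gpx4*, 0.24 for *Sod1*, -0.09 for *Prdx3* and 0.38 for *Prdx5*. The 2 control libraries thus gave these 4 genes opposite directions.

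Markers of other cells were measured in the same libraries, and none had an adjusted p under 0.05. Of 11 erythroid markers measured, 10 were higher in both BcorΔE9-10 libraries, 6 of them with an unadjusted p under 0.05 and 0 adjusted (edgeR), where 16.8% and 1.34% of all genes were higher by these 2 measures. Their summed level was 193 to 215 CPM in BcorΔE9-10 and 81.8 to 94.1 CPM in BcorWT. Among them, *Car2*, which encodes carbonic anhydrase 2, had 257 and 235 counts against 40 and 23, and the blood group gene *Rhd* had 37 and 47 counts against 0 and 1. The erythroid regulator *Klf1* had 24 and 17 counts against 1 and 4, and *Gata1* 22 and 10 against 5 and 22, and *Epor*, *Alas2*, *Slc4a1* and *Ahsp* were not analysed here. Beside these, 5 of the 10 antioxidant genes had log2 fold changes above 0 and 5 below. They included *Prdx2* (0.29) and *Cat* (0.28), and *Gpx1* (-0.10) and *Sod1* (-0.39). The part of erythroid RNA in the antioxidant levels was not tested. Red cell lysis and the lineage depletion, which covers the erythroid lineage, are meant to remove mature red cells. All 8 eosinophil, basophil and mast cell markers measured were lower in both BcorΔE9-10 libraries (244 to 271 CPM in sum, against 579 to 756), 6 of them with an unadjusted p under 0.05 and 0 adjusted (edgeR), where 17.1% and 3.07% of all genes were lower in these ways. Markers of late neutrophils, in sum, stood at 63517 CPM in BcorΔE9-10 replicate 1 and 94671 in BcorWT replicate 1, and at 155460 and 144120 in the libraries numbered 2, the libraries in which *Prdx5* and *Prdx6* were also higher, whereas *Prdx1*, *Prdx2*, *Prdx3*, *Gpx4* and *Cat* were lower in the libraries numbered 2 of both genotypes. By log2 fold change, 2 of these 10 late neutrophil markers were above 0 and 8 below (median -0.73). The groups overlapped for all 10, where 33.9% of all genes did not overlap. Of the 10, 0 had an unadjusted p under 0.05 (edgeR), beside 4.42% of all genes. Lineage depletion and the sort, which gate out CD11b and Gr-1, are meant to remove mature neutrophils. The part of these cells in the antioxidant levels was not tested.

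The other genes of the redox pathways were given by 8 lists, of which 110 of 127 genes were in the table. None had an adjusted p under 0.05 with edgeR, and 3 were higher and 5 lower in BcorΔE9-10 at an unadjusted p under 0.05, together 7.27% beside 4.42% of all genes (1.34% higher, 3.07% lower). Their median log2 fold change was -0.13, against -0.03 over all genes. BcorWT replicate 1 weighed heavily on these counts, as without it 30 of the listed genes (27.3%) had an unadjusted p under 0.05 and 9 (8.18%) an adjusted p under 0.05, beside 25.0% and 4.94% of all genes. The median turned to 0.04 without BcorWT replicate 2. Values in parentheses below are log2 fold changes with their standard errors.

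In the thioredoxin and peroxiredoxin system 22 of 25 other genes were measured, 10 above and 12 below 0 (median -0.02). *Txn2*, the mitochondrial thioredoxin that supplies *Prdx3*, was at 40.5 and 38.3 CPM in BcorΔE9-10 and 58.7 and 75.1 CPM in BcorWT, a log2 fold change of -0.77 (standard error 0.31, unadjusted p = 0.0417, edgeR adjusted p = 0.945). It was the one gene of this list under 0.05, while its cytosolic counterpart *Txn1* stood at 0.28. Of 19 further genes of glutathione synthesis and use (median -0.32), *Gpx3*, the secreted glutathione peroxidase, had 5.73 and 5.71 CPM against 8.47 and 28.8 CPM (-1.72, standard error 0.60, unadjusted p = 0.0217, edgeR adjusted p = 0.945). One library, BcorWT replicate 2, carried most of that difference, since without it the value was -0.57.

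Of 7 other genes of superoxide handling, none was under 0.05 and the median was -0.57. *Ccs*, the chaperone that loads copper into *Sod1*, was at 20.3 and 15.3 CPM in BcorΔE9-10 and 21.3 and 33.3 CPM in BcorWT (-0.62, standard error 0.38, unadjusted p = 0.141, edgeR adjusted p = 0.945). *Atox1*, a cytosolic copper chaperone, had 26.4 and 24.5 CPM against 28.3 and 72.1 CPM (-0.99, standard error 0.46, unadjusted p = 0.0628, edgeR adjusted p = 0.945). As for *Sod1* itself, BcorWT replicate 2 was the highest library for both, and without it the values were -0.26 for *Ccs* and -0.16 for *Atox1*. None of 13 genes of NADPH supply was under 0.05 (median -0.18). *Pgls*, the lactonase of the pentose phosphate pathway, had 315 and 272 CPM in BcorΔE9-10 and 333 and 848 CPM in BcorWT (-1.01, standard error 0.47, unadjusted p = 0.0629, edgeR adjusted p = 0.945), and -0.18 without BcorWT replicate 2. *Nadk2*, the mitochondrial NAD kinase, had 35.3 and 32.6 CPM against 28.9 and 13.7 CPM (0.68, standard error 0.41, unadjusted p = 0.137, edgeR adjusted p = 0.945). Its value was 0.23 without BcorWT replicate 2 and 1.30 without BcorWT replicate 1.

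Nrf2, its regulators and its targets were measured with 25 of 27 genes, 14 above and 11 below 0 (median 0.06). *Bach1*, which encodes the haem-sensitive repressor that competes with Nrf2 for antioxidant response elements, was at 35.7 and 30.3 CPM in BcorΔE9-10 and at 18.1 and 13.0 CPM in BcorWT. Both BcorΔE9-10 libraries lay above both controls, with a log2 fold change of 1.09 (standard error 0.35, unadjusted p = 0.0150, edgeR adjusted p = 0.945) and values of 0.86 to 1.34 over the fits with a library left out. *Prdx1* and *Sod1*, the genes with a match to the element shown above, stood at -0.16 and -0.39. All 10 genes of selenoprotein synthesis were measured (median -0.09). Their one gene under 0.05 was *Scly*, selenocysteine lyase, with 15.0 and 15.2 CPM against 23.9 and 34.2 CPM (-0.95, standard error 0.36, unadjusted p = 0.0287, edgeR adjusted p = 0.945), while the selenoenzyme genes *Gpx1* and *Gpx4* stood at -0.10 and 0.32.

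For the phagocyte NADPH oxidase, which makes superoxide, and the granule peroxidases, 10 of 11 genes were measured. All 10 had log2 fold changes below 0 (median -0.46), as had 6317 of all 12067 genes. Of the 10, 1 was under 0.05, beside 4.42% of all genes. The groups overlapped for the other 9 of the list, where 33.9% of all genes did not overlap. The common direction rested on BcorWT replicate 2, as without it 7 were above 0 and 3 below (median 0.14). Without BcorWT replicate 1, 9 of 10 were below 0 (median -0.84), 5 with an unadjusted and 2 with an adjusted p under 0.05 (50% and 20%, beside 25.0% and 4.94% of all genes). Of the 10 late neutrophil markers given above, 2 were above 0 and 8 below (median -0.73), and the part of these cells in this list was not tested. The gene of this list under 0.05 was *Epx*, eosinophil peroxidase, at 2.22 and 1.14 CPM in BcorΔE9-10 and 7.30 and 10.2 CPM in BcorWT (-2.38, standard error 0.62, unadjusted p = 0.00527, edgeR adjusted p = 0.945), which is also among the eosinophil markers that were lower above. The list of FoxO factors, *Atm* and redox control in stem cells had 11 genes measured, 7 above and 4 below 0 (median 0.20). *Cdkn1a*, the cell cycle inhibitor p21, was at 33.5 and 23.8 CPM against 14.0 and 14.9 CPM (0.98, standard error 0.36, unadjusted p = 0.0260, edgeR adjusted p = 0.945). *Sirt1*, a deacetylase of FoxO proteins, was at 40.8 and 39.3 CPM against 27.7 and 14.3 CPM (0.94, standard error 0.39, unadjusted p = 0.0440, edgeR adjusted p = 0.945), with 0.53 when BcorWT replicate 2 was left out. *Ppargc1a*, the coactivator of mitochondrial biogenesis and of antioxidant genes, had 1 and 3 counts in BcorΔE9-10 and 15 and 14 in BcorWT, a ratio of 0.104 (exact 95% counting interval 0.0266 to 0.296), with an edgeR adjusted p of 0.945 (unadjusted 0.00763). Its fitted log2 fold change was -3.25, but -4.04 without BcorΔE9-10 replicate 2 and -2.39 with a prior count of 2.

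**Figure D4:**
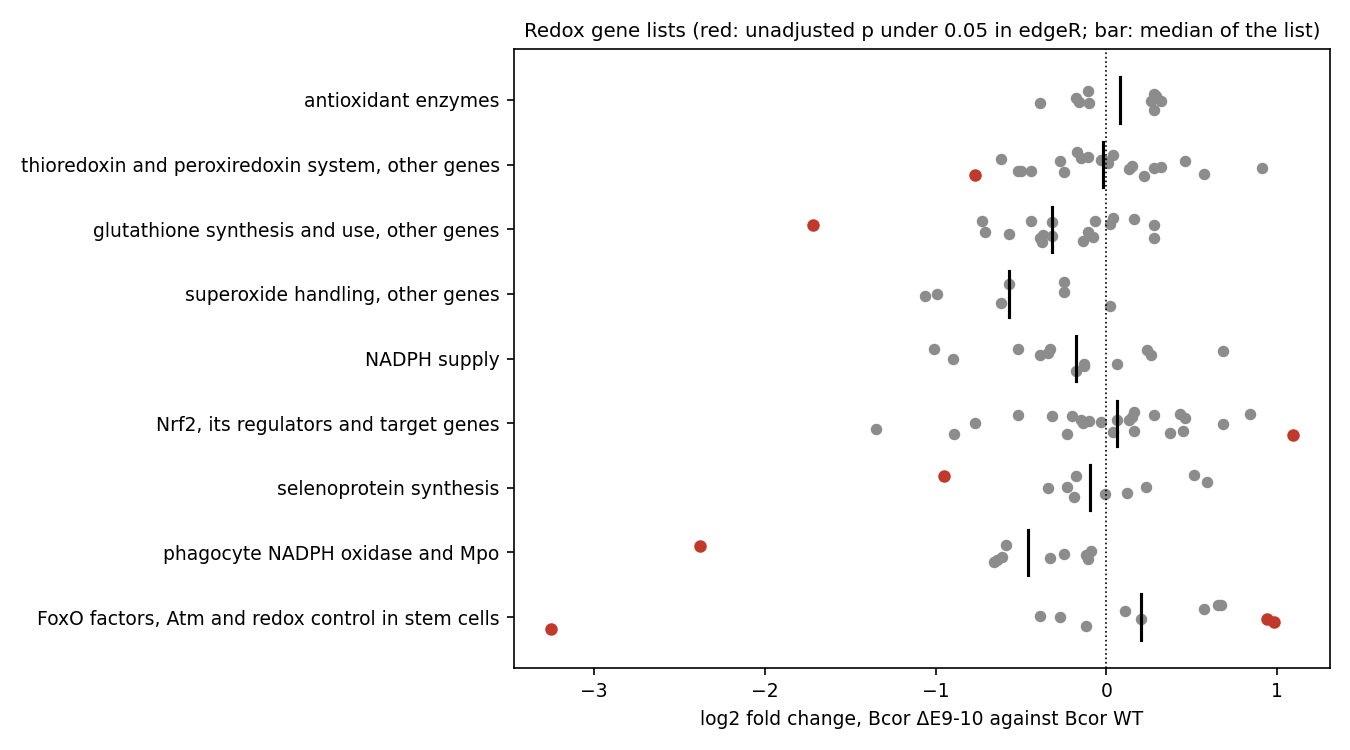
Log2 fold change, BcorΔE9-10 against BcorWT, of the 10 antioxidant genes (top row) and of the other redox genes by list. Each point is a gene, red points have an unadjusted edgeR p under 0.05 and bars mark the medians, and the top row holds no red point while the lists hold 8 (3 higher, 5 lower).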

How the data were processed

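Quant-seq libraries of sorted donor-derived KL cells were analysed, 2 of each genotype. The authors removed low-quality reads, trimmed ends with cutadapt (1.7 per the labels), mapped to mm10 (GRCm38) with HISAT2 and counted with featureCounts of Subread, and the deposited values are unnormalized counts. Whether counting used strand, and the annotation, are not given in the sources used here. In BcorΔE9-10 replicate 2 and BcorWT replicate 1, where 1 gene was not whole, the deposited values were read as estimated counts (the authors do not say how these values arose) and rounded.

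The 10 genes and all lists were chosen with earlier results of these data known. Differences were tested in edgeR 4.0.16 (R 4.3.3) over all 12067 genes with filterByExpr, which removed 0, TMM scaling, quasi-likelihood F tests, a prior count of 0.125 and Benjamini-Hochberg adjustment. The study used limma; limma-voom (3.58.1) and DESeq2 (1.42.0) were alternatives here. The standard error is the fold change divided by the square root of F. The fit was tested on simulated data with 200 changed genes, each changed by more than any of the 10 genes. That test therefore does not show whether changes as small as theirs would be found. Of each redox list the genes with an unadjusted p under 0.05 were named, at most 3 in each direction by size, or else the extreme genes whose groups did not overlap, together with *Bcor*, near-identical copies (at least 90% over 100 bases, blastn 2.17.0), gate markers and markers of lists that moved with genotype. Gene positions and coding sequences came from GENCODE M21 and promoters from RefSeq (GRCm38.p6). Tables and figures used pandas 2.3.3 and matplotlib 3.10.9 in Python 3.11.15.

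Depth was 3825289.5 to 6253100.5 counts per library. Shares carry 95% Wilson intervals. Replicate numbers come from the labels. After subtracting each group's mean, libraries that share a number correlated at -0.0983. They were therefore not treated as pairs, and a replicate block was tried as an alternative. Other alternatives were DESeq2's size factors, library totals, a minimum of 10 counts in every library, no filter, leaving out *Gm42418*, a prior count of 2, adding copies, and each library left out. The alternatives for counts of all genes and of listed redox genes at an unadjusted p, the redox lists without each BcorWT library, and the list of genes with an in-frame TGA were added after the data were seen.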

Additional observations from a re-analysis of the deposited data

How the results depend on the processing

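With 2 libraries a group, each genotype offers a single within-group difference, and the control libraries differ in *Gm42418* and in overall likeness. None of the 10 antioxidant genes had an adjusted p under 0.05 under any alternative, including the replicate block (0 genes), and their adjusted p ranged from 0.138 (*Gpx4* without BcorWT replicate 1) to 1.00 (*Cat* with DESeq2). Their median log2 fold change, 0.08, was the same with the block, 0.16 with library totals and 0.03 to 0.15 with 1 library left out. In fits that left out no library, none of 22 named genes turned direction, also where library totals moved the median of all genes from -0.03 to 0.04. Leaving out 1 library turned 8 of the 10, with ranges of -0.31 to 0.00 for *Prdx1*, -0.01 to 0.54 for *Prdx2*, -0.09 to 0.69 for *Prdx3*, -0.59 to 0.38 for *Prdx5*, -0.25 to 0.03 for *Prdx6*, -0.25 to 0.04 for *Gpx1*, -0.03 to 0.78 for *Gpx4* and -0.83 to 0.24 for *Sod1*, and 0 to 2 of the 10 had an unadjusted p under 0.05. The number of all genes with an adjusted p under 0.05 was 2, but 5 with at least 10 counts in every library, 14 with the replicate block, 4 with limma-voom, 43 with DESeq2 and 6 to 596 with 1 library left out (highest without BcorWT replicate 1). At an unadjusted p under 0.05 it was 533, and 243 to 3013 with 1 library left out. Listed redox genes numbered 0 to 9 at an adjusted and 2 to 30 at an unadjusted p, both highest without BcorWT replicate 1, where *Gpx3* (-2.33), *Atox1* (-1.51), *Pgls* (-1.53), *Epx* (-2.60) and *Sirt1* (1.48) passed adjustment. The cause of these changes was not tested.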

Other observations

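Beyond *Gpx1* and *Gpx4*, 18 genes of the table had an in-frame TGA codon in GENCODE M21 (20 of 10173 genes with a complete coding sequence), a list found by sequence after the data were seen. Of these 18 selenoprotein genes, 8 had a log2 fold change above 0 and 10 below 0 in BcorΔE9-10, with a median of -0.06. With edgeR 0 had an adjusted p under 0.05, and 2 (11.1%, beside 4.42% of all genes) had an unadjusted p under 0.05, both lower. One was *Gpx3*, given above. The other was *Selenom*, a selenoprotein of the endoplasmic reticulum, at 6.28 and 5.22 CPM in BcorΔE9-10 and 14.6 and 11.3 CPM in BcorWT, a log2 fold change of -1.16 (standard error 0.45, edgeR unadjusted p = 0.0318, adjusted p = 0.945). *Selenos*, which acts in the removal of misfolded proteins, was at 210 and 181 CPM against 178 and 100.1 CPM, and *Selenof* at 67.8 and 95.2 CPM against 86.4 and 17.9 CPM. In both, as in *Gpx4*, BcorWT replicate 2 was the lowest library. It was also the lowest for *Selenoi*, *Selenok*, *Selenop*, *Sephs2* and *Txnrd1*. That library was instead the highest for *Gpx3*, *Msrb1*, *Selenon*, *Selenoo* and *Txnrd3*, and neither for the rest of the list.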
